A study of Mus musculus with 2 samples.

Results

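CTCF peaks of embryonic stem (ES) cells and mouse embryonic fibroblasts (MEFs) are described peak by peak in 2 stretches of the mouse genome of 1 Mb each, chosen by their surplus of peaks found in ES cells and not in MEFs. The first lies on chromosome 11 from 107000001 to 108000000 and is named after Prkca, Cacng4 and Cacng5. The second lies on chromosome 17 from 27000001 to 28000000 and is named after Grm4 and Hmga1. A peak belonged to a window when its midpoint fell inside it. The 2 windows together held 206 of the 98160 peaks in the data, namely 129 of 44424 ES peaks and 77 of 53736 MEF peaks. CTCF was mapped by chromatin immunoprecipitation and sequencing, with 1 library per cell type, and positions are in the mm9 build. The labels give the background of the ES cells as Bl3.10 and C57BL and that of the MEFs as C57BL6. Both were grown in DMEM with fetal calf serum and precipitated with the same antibody against CTCF. The labels used here give no age, clone or pooling. The cell type, the genetic background and the single library of each kind vary together and cannot be told apart.

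CTCF is a zinc-finger protein that binds DNA through a long motif and, together with cohesin, holds the bases of chromatin loops. Its sites therefore often mark the borders between neighbouring regulatory domains. ES cells are pluripotent cells of the early embryo, and MEFs are fibroblasts cultured from embryos of a later stage. Cacng4 and Cacng5 encode gamma subunits that act as auxiliary proteins of AMPA-type glutamate receptors. Prkca encodes protein kinase C alpha, a kinase that responds to calcium and diacylglycerol. Grm4 encodes the metabotropic glutamate receptor mGluR4, which acts mainly at presynaptic terminals of neurons. Hmga1 encodes an AT-hook protein that bends DNA and is abundant in embryonic and proliferating cells.

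In the gene order of the RefSeq table for the GRCm38.p6 assembly, Cacng4, Cacng5 and Prkca follow each other directly. Helz, which encodes a putative RNA helicase, and Cacng1, which encodes the gamma subunit of the skeletal muscle calcium channel, come before them. Apoh, which encodes a plasma glycoprotein, and Cep112, which encodes a centrosomal protein, follow. Grm4 and Hmga1 are also direct neighbours. Ip6k3, an inositol phosphate kinase gene, and Lemd2, a nuclear envelope gene, precede them, and Nudt3 and Rps10, the latter a ribosomal protein gene, are among the next genes. That table follows another build than the peaks. The genes were therefore not placed inside the windows, and no peak below is assigned to a gene, exon, intron or promoter.

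Both windows were selected on the number of ES-only less MEF-only peaks, so the counts that follow describe the choice and were not tested. Peaks of the 2 lists that had at least 1 bp in common were taken as shared, and the others as ES-only or MEF-only. In the Prkca-Cacng window 44 of 56 ES peaks were ES-only and 19 of 31 MEF peaks were MEF-only. In the Hmga1-Grm4 window the numbers were 57 of 73 and 32 of 46. ES-only peaks thus exceeded MEF-only peaks by 25 in either window. Among the 2406 autosomal 1 Mb windows with a peak, the median of this difference was -4, and 4 windows (0.166%) reached 25. One of these 4 lay higher, and the other with exactly 25 was on chromosome 17 from 29000001 to 30000000, the second window after the Hmga1-Grm4 window, with 75 ES and 50 MEF peaks. The next window below had 24. ES peaks outnumbered MEF peaks in 557 of the 2406 windows (23.2%).

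Per MEF-only peak there were 2.32 ES-only peaks in the Prkca-Cacng window (95% exact binomial interval 1.32 to 4.20) and 1.78 in the Hmga1-Grm4 window (1.14 to 2.84). MEF peaks made up 35.6% of the peaks of both lists in the first (95% Wilson interval 26.4 to 46.1) and 38.7% in the second (30.4 to 47.6), against 54.7% of all peaks in the data. Among the 507 autosomal windows with at least 60 peaks in both lists together, the median MEF share was 50.8%. Of these, 3 had a MEF share as low as that of the Prkca-Cacng window or lower, and 9 as low as that of the Hmga1-Grm4 window or lower, the windows themselves included. These intervals cover counting error only, and with 1 library per cell type no spread between cultures can be given.

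No such surplus was found in the windows next to them. On chromosome 11, the window before held 37 ES and 43 MEF peaks and the window after held 13 ES and 24 MEF peaks. There were 28 ES-only against 34 MEF-only peaks before, and 10 against 21 after. The MEF share was 53.75% before (42.9 to 64.3) and 64.9% after (48.8 to 78.2). On chromosome 17, the window before held 48 ES and 64 MEF peaks and the window after held 64 ES and 66 MEF peaks. ES-only peaks numbered 26 before and 37 after, and MEF-only peaks numbered 41 in each. The MEF share was 57.1% before (47.9 to 65.9) and 50.8% after (42.3 to 59.2). The intervals of the window before on chromosome 11 and the window after on chromosome 17 overlapped that of the described window. The described windows were chosen by these counts, so nothing is read from whether the intervals overlap.

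Set against the neighbouring windows, the same counts give ratios that also describe the choice, and no difference between the 2 windows was tested. The Prkca-Cacng window had 2.24 times as many ES peaks as the mean of its 2 neighbours (exact interval 1.50 to 3.35), while its MEF peaks were 0.925 times theirs (0.584 to 1.44). Its ES peaks were more frequent than in either neighbour, and its MEF peaks lay between them. In the Hmga1-Grm4 window the ES peaks were 1.30 times the mean of the neighbours (0.957 to 1.77) and the MEF peaks 0.708 times (0.494 to 0.998). Here the ES number was above and the MEF number below that of both neighbours. The intervals of the 2 windows overlapped for ES and for MEF peaks. The chromosome 11 neighbours also differed among themselves, with 80 peaks of both lists before the window and 37 after it.

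**Figure D1:**
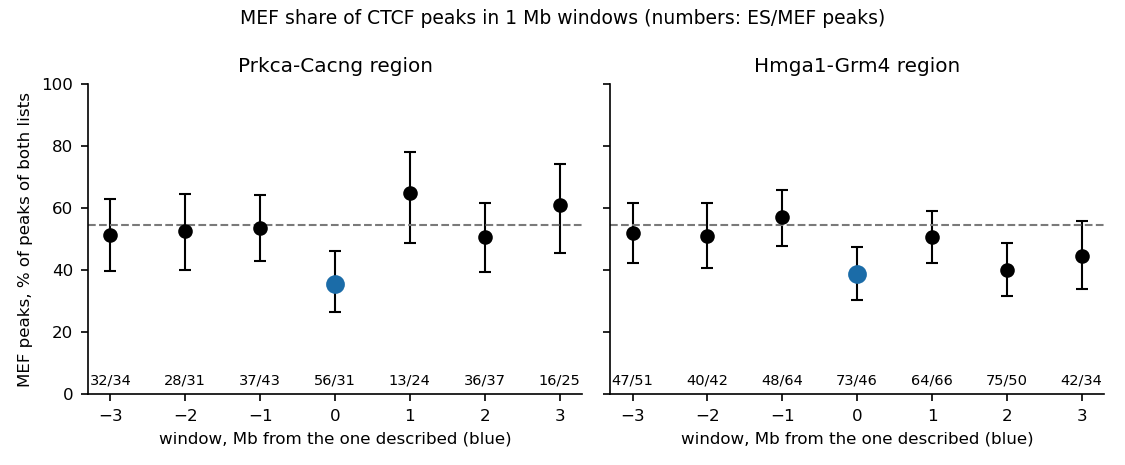
Share of MEF peaks among the peaks of both lists, in percent, in the described window (blue) and in the 3 windows of 1 Mb on either side, with 95% Wilson intervals for counting error. The numbers at the foot are ES and MEF peaks, and the dashed line is the share in the whole data, 54.7%. The Prkca-Cacng window, at 35.6%, is the lowest of its row, while the Hmga1-Grm4 window, at 38.7%, lies close to the window 2 Mb after it, at 40%.

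Within the Prkca-Cacng window the surplus lay in its first part. In bins of 50 kb, ES-only peaks exceeded MEF-only peaks in 12 of the 19 bins that held a peak (63.2%), MEF-only peaks were in excess in 5, and 2 were equal. Among all autosomal 50 kb bins with a peak, 33.1% had more ES-only and 49.3% more MEF-only peaks. The rule that chose the window used the same peaks, so nothing is read from this share. Its first 500 kb held 32 ES-only and 9 MEF-only peaks, and its last 500 kb held 12 and 10. This division was chosen after the values were seen.

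The bin from 107350001 to 107400000 was the richest, with 7 ES-only peaks, 1 MEF-only peak and 1 shared peak. At the start of the window, the bin from 107000001 to 107050000 held 5 ES-only peaks and no MEF peak. Of the autosomal bins with a peak, 63 (0.191%) held at least 5 ES-only and no MEF-only peak. The bin was picked from a window chosen for such peaks, so nothing is read from this share. In the bins from 107100001 to 107150000, from 107200001 to 107250000 and from 107300001 to 107350000, there were 4 ES-only peaks and 1 MEF-only peak each. A last bin, from 107950001 to 108000000, had 3 ES-only peaks and no MEF peak. The largest differences the other way were of 2 peaks, as in the bins from 107550001 to 107600000 and from 107650001 to 107700000, with 1 ES-only and 3 MEF-only peaks each. The bin between these held no peak of either list.

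Along the Hmga1-Grm4 window the surplus was found in both parts of 500 kb, but unevenly within the first. ES-only peaks were in excess in 13 of 20 bins (65.0%), MEF-only peaks in 4, and 3 bins were equal. The first 500 kb held 27 ES-only and 17 MEF-only peaks and the last 500 kb held 30 and 15. Within the first, MEF-only peaks were in excess in the bins from 27000001 to 27050000, from 27050001 to 27100000 and from 27300001 to 27350000. The bins from 27350001 to 27500000 held 2, 2 and 3 ES-only peaks and no MEF peak. The largest difference was in the bin from 27800001 to 27850000, with 6 ES-only peaks and 1 MEF-only peak beside 3 shared ES peaks. The bin from 27250001 to 27300000 followed with 6 ES-only and 2 MEF-only peaks. A difference of 3 was reached in the bins from 27450001 to 27500000 and from 27500001 to 27550000, with 3 ES-only peaks and no MEF peak each, and from 27750001 to 27800000, with 5 and 2. In the bin from 27200001 to 27250000, both lists had 5 unshared peaks and no shared one. The largest difference the other way was in the bin from 27050001 to 27100000, with no ES-only and 2 MEF-only peaks.

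Bins with at least 4 ES-only peaks numbered 5 of 20 in either window, against 3.34% of autosomal bins with a peak. The windows were chosen for these peaks, so nothing is read from this difference. Bins with at least 4 MEF-only peaks numbered 0 of 20 in the Prkca-Cacng window and 2 of 20 in the Hmga1-Grm4 window. The autosomal share of such bins was not computed, so these numbers are not compared. In the neighbouring windows, ES-only peaks were in excess in 7 of 19 bins before and 2 of 16 bins after the Prkca-Cacng window. Around the Hmga1-Grm4 window they were in excess in 6 of 19 bins before and 10 of 19 bins after.

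**Figure D2:**
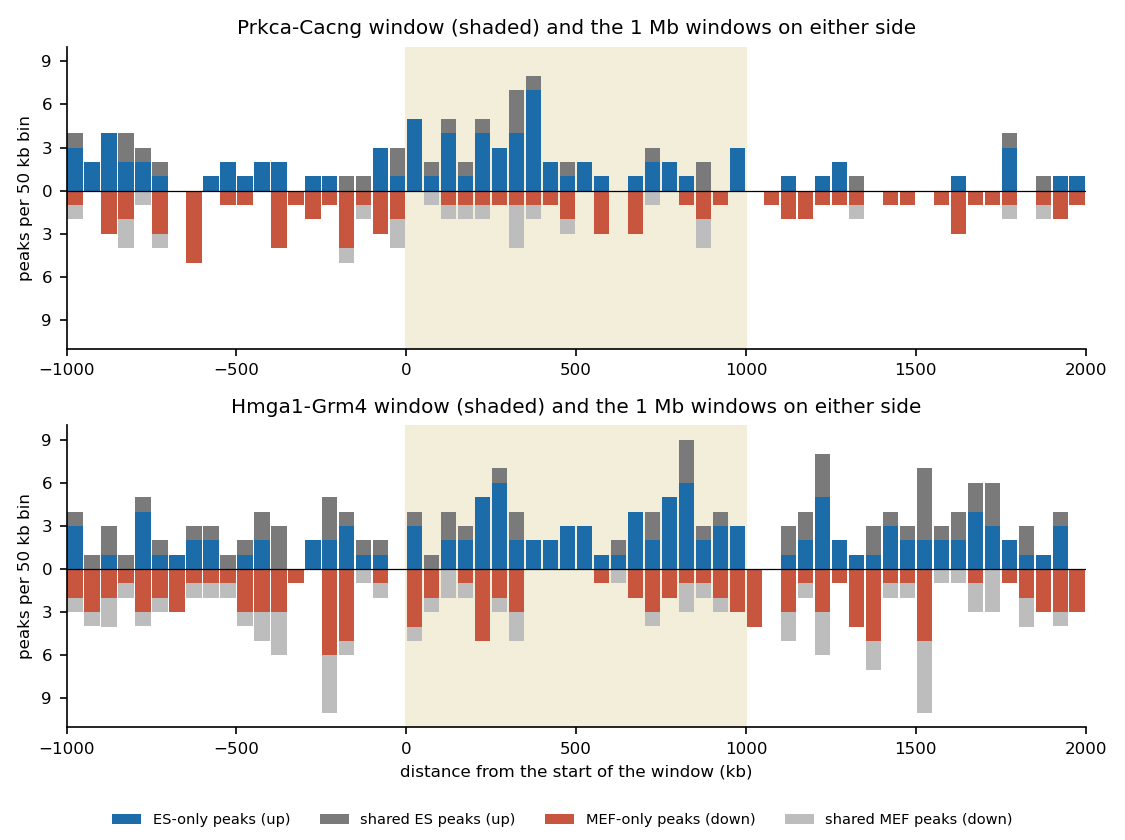
Peaks per 50 kb bin along each window (shaded) and the 1 Mb windows on either side, with ES peaks drawn upwards and MEF peaks downwards; the horizontal axis is the distance from the start of the window in kb. Colour marks unshared and grey shared peaks. The ES-only bars are tallest in the first 500 kb of the Prkca-Cacng window, and the Hmga1-Grm4 window has 4 bins in a row, from 350 to 550 kb, with ES-only peaks and no MEF peak.

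Those 4 bins belong to the longest stretch of ES-only peaks. On chromosome 17, 11 ES-only peaks followed each other from 27349798 to 27530829, over 181 kb, with no MEF peak between them. The MEF peaks on either side ended at 27338135 and started at 27558094, and their midpoints lay 220 kb apart. This was the longest distance between neighbouring MEF peaks in the window, where the median was 13.6 kb (quartiles 7.34 and 24.0 kb). The most remote of the 11 peaks lay 101 kb from any MEF peak. Of the 2406 autosomal windows, 7 (0.291%) held a run of 11 or more ES-only peaks, and the longest such run was 12. Among the 507 windows with at least 60 peaks, 3 (0.592%) did. The window was chosen for its ES-only peaks, which makes long runs likelier, so these shares are a description. Of the 52201 distances between neighbouring autosomal MEF peaks, 8 (0.0153%) spanned 11 or more ES peaks. That share is over single distances, and the one described was the longest of a window chosen for ES-only peaks. Nothing is therefore read from this share either. The score percentiles of the 11 peaks ran from 2.60 to 98.5 with a median of 46.6, so the stretch held peaks of low and of high rank. The deposited score is the authors' own, and its percentile is counted upwards from the lowest score in the peak's own list.

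The longest run of the Prkca-Cacng window had 6 ES-only peaks, from 107001718 to 107050864, in 75.95 kb without a MEF peak. Runs of 6 or more occurred in 7.73% of autosomal windows and in 95 of the 507 windows with at least 60 peaks (18.7%). Its percentiles ran from 16.2 to 92.1 with a median of 75.9. The longest MEF-only run had 3 peaks in the Prkca-Cacng window, where 2 runs reached that length, and 2 peaks in the Hmga1-Grm4 window, where 6 runs did. Runs of at least 3 MEF-only peaks occurred in 88.4% of autosomal windows and runs of at least 2 in 97.5%. Few MEF-only peaks among many ES peaks is what the windows were chosen for, so nothing is read from the length of these runs.

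**Figure D3:**
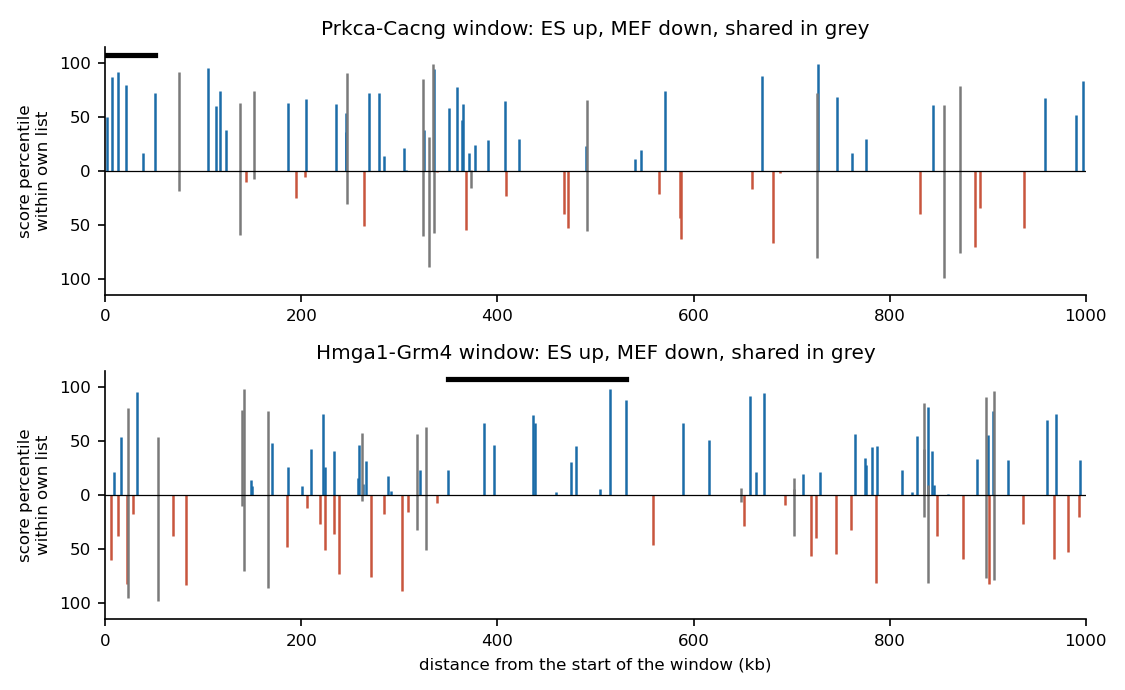
Single peaks along each window, drawn at their distance from its start in kb; the height is the score percentile of the peak within its own list, upwards for ES and downwards for MEF peaks, with shared peaks in grey. The black bars mark the longest runs of ES-only peaks without a MEF peak, of 6 peaks in the Prkca-Cacng window and of 11 in the Hmga1-Grm4 window.

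The score ranks of the ES-only peaks differed between the windows. Their median percentile was 61.0 in the Prkca-Cacng window (quartiles 29.1 and 72.35; 95% interval of the median 37.9 to 67.4), against 46.6 for ES-only peaks of all autosomes. It was 34.7 in the Hmga1-Grm4 window (quartiles 22.0 and 56.8; interval 26.2 to 46.6). The intervals of the windows overlap each other, and the autosomal median lies inside that of the Prkca-Cacng window and at the upper limit of that of the Hmga1-Grm4 window. With 1 ES library no test of these differences was made. Above percentile 90 there were 7 of 56 ES peaks in the first window and 7 of 73 in the second, against 9.96% on the autosomes. Of these, 4 of 44 and 4 of 57 were ES-only peaks (9.09%, 3.59 to 21.2, and 7.02%, 2.76 to 16.7). The autosomal share, 6.75%, lay within both intervals. Shared ES peaks above percentile 90 numbered 3 of 12 and 3 of 16, against 19.0%.

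The ES-only surplus that the windows were chosen for was also divided by score, at percentile 50 of each list. These are the peaks behind the choice, so the division is a description. Among the higher-ranking peaks the Prkca-Cacng window had 26 ES-only and 7 MEF-only peaks, and the Hmga1-Grm4 window had 19 and 14. Among the lower-ranking peaks the numbers were 18 and 12 in the first and 38 and 18 in the second. Most of the difference thus lay in peaks above percentile 50 on chromosome 11 and in peaks below it on chromosome 17. On the autosomes the median percentile was 46.6 for ES-only and 45.8 for MEF-only peaks, so most peaks of either class ranked below 50. The same division was not made over the autosomes, so nothing is read from this contrast between the windows. Above percentile 50 the windows before and after held 15 ES-only against 10 MEF-only and 5 against 7 peaks on chromosome 11, and 13 against 20 and 13 against 18 on chromosome 17. The window before the Prkca-Cacng window therefore also had more ES-only peaks at this level. Since the lists differ in length and the score is not defined, equal percentiles need not mean equal binding.

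The highest-ranking ES-only peak of the Prkca-Cacng window lay at 107726401 to 107726799 and ranked 466 of 44424 (percentile 98.9). A MEF peak lay 1086 bp away, and the ES peak that shared a position with that MEF peak was at percentile 72.5. The next lay at 107104526 to 107104924 (percentile 95.2), 29.5 kb from the nearest MEF peak. The third, at 107335225 to 107335623 (percentile 94.1), was 498 bp from a MEF peak, which an ES peak next to it overlapped. Thus 2 of these 3 stood beside a shared site, and 1 stood apart.

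The highest-ranking ES-only peak of the Hmga1-Grm4 window lay at 27514088 to 27514486 and ranked 653 (percentile 98.5). It belonged to the run of 11 peaks and was 44.0 kb from the nearest MEF peak. The next lay at 27032495 to 27032893 (percentile 95.7), with a MEF peak 4.12 kb away. The third lay at 27671626 to 27672024 (percentile 95.3), with a MEF peak 20.5 kb away.

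MEF-only peaks ranked near the middle of their list and seldom high. Their median percentile was 39.9 in the Prkca-Cacng window (interval 17.04 to 52.9) and 42.9 in the Hmga1-Grm4 window (28.6 to 59.2), against 45.8 for MEF-only peaks of all autosomes, which lies within both intervals. Above percentile 90 there were 1 of 31 MEF peaks in the first window and 2 of 46 in the second, against 10.1% on the autosomes, and all 3 were shared peaks (1 of 12 and 2 of 14, against 25.4%). None of the 19 MEF-only peaks in the first window reached it, which allows a share of up to 15.8%. None of the 32 in the second did, which allows up to 10.7%. The autosomal share of MEF-only peaks was 5.76%, below both limits, so a difference was not detectable with these numbers. The highest-ranking MEF-only peak of the Prkca-Cacng window lay at 107887032 to 107887430 (percentile 70.4), 15.3 kb from an ES peak. The next 2 lay at 107681272 to 107681670 (percentile 67.2) and at 107586644 to 107587042 (percentile 63.4). That of the Hmga1-Grm4 window lay at 27301960 to 27302358 (percentile 88.7), 10.95 kb from an ES peak. It was followed by peaks at 27082391 to 27082789 (percentile 83.3) and at 27901407 to 27901805 (percentile 82.8), the latter 812 bp from an ES peak.

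**Figure D4:**
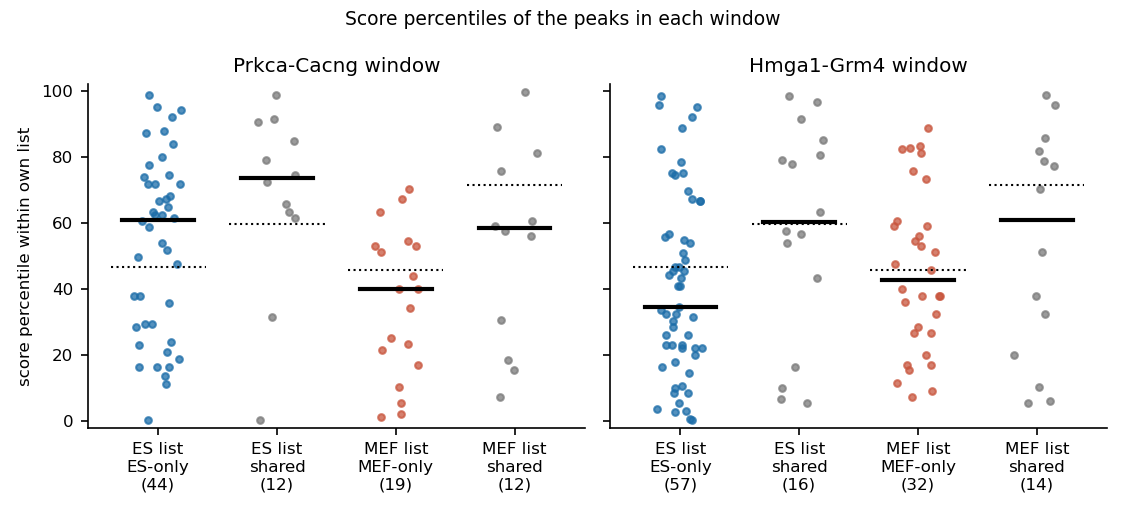
Score percentile of each peak within its own list, by window and class, with the number of peaks in brackets; thick lines are medians in the window and dotted lines medians of the same class over the autosomes. The ES-only median lies above the autosomal one in the Prkca-Cacng window (61.0 against 46.6) and below it in the Hmga1-Grm4 window (34.7).

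Shared sites were a minority of the ES peaks in both windows. The unshared peaks that the choice rests on are part of these shares, which are therefore a description. They made up 12 of 56 ES peaks in the Prkca-Cacng window (21.4%, 95% Wilson interval 12.7 to 33.8), and 16 of 73 in the Hmga1-Grm4 window (21.9%, 14.0 to 32.7). The autosomal share of ES peaks was 26.2%, which lies within both intervals. Of the MEF peaks, 12 of 31 (38.7%, 23.7 to 56.2) and 14 of 46 (30.4%, 19.1 to 44.8) were shared, against 21.9% on the autosomes. In the windows before and after the Hmga1-Grm4 window 45.8% (32.6 to 59.7) and 42.2% (30.9 to 54.4) of ES peaks were shared. The interval of the Hmga1-Grm4 window overlapped each of these at its upper end. Around the Prkca-Cacng window the shares were 24.3% before and 23.1% after, within the interval of the window.

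By the rule of overlap, the midpoints of shared peaks differed by less than the width of a peak. Midpoints of shared peaks in the Prkca-Cacng window lay a median of 87.5 bp apart, from 17 to 380 bp, and 6 of 12 pairs were within 50 bp. On chromosome 17 the median was 42.5 bp, from 11 to 318 bp, and 9 of 16 were within 50 bp. A pair is a shared ES peak with its nearest MEF peak, and these 16 pairs hold only 14 MEF peaks. On the autosomes the median was 45 bp and 53.9% were within 50 bp. Midpoints more than 200 bp apart were found in 3 of 12 and 3 of 16 pairs (25% and 18.75%), against 12.4% on the autosomes, and such peaks overlap by less than 50% of their width. On chromosome 17 these included pairs of 203 and 318 bp, at MEF peaks that also had an ES peak within 50 bp.

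The same shared site could rank high in one list and low in the other. The highest-ranking shared ES peak of the Prkca-Cacng window, at 107334450 to 107334848, was at percentile 98.8 in ES cells, and its MEF partner, 277 bp away, was at percentile 57.7. The next, at 107075194 to 107075592, was at percentile 91.6 with a partner at 18.5. The third, at 107246594 to 107246992, was at percentile 90.6 with a partner at 30.5. The highest-ranking MEF peak of the window was also shared. It was at percentile 99.7, and its ES partner, at 107855758 to 107856156, was at 61.4. In this window 7 of 12 pairs were above percentile 50 in both lists, 3 only in the ES list, 1 only in the MEF list and 1 in neither.

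Among shared ES peaks of the Hmga1-Grm4 window the highest-ranking, at 27141358 to 27141756, was at percentile 98.7 and its MEF partner at 70.4. The next lay at 27906106 to 27906504 (percentile 96.8, partner 78.7), and the third at 27898634 to 27899032 (percentile 91.4, partner 77.3). These last 2 lay within 8 kb of each other, and both sites were above percentile 75 in either list. The highest-ranking MEF peak of this window, at percentile 98.7, had an ES partner at 27053560 with percentile 53.9. Of the 16 pairs, 7 were above percentile 50 in both lists, 4 only in the ES list, 1 only in the MEF list and 4 in neither. The MEF peaks starting at 27702580 and 27834460 each entered with both ES peaks that overlapped them. The latter MEF peak falls under neither list with one ES peak and under only the ES list with the other. On the autosomes 41.6% of pairs were above percentile 50 in both lists, 16.7% only in the ES list and 25.7% only in the MEF list.

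Most unshared peaks had a peak of the other list in their neighbourhood. The nearest MEF peak lay a median of 12.6 kb from an ES-only peak in the Prkca-Cacng window (quartiles 3.38 and 21.0 kb), against 10.8 kb on the autosomes. On chromosome 17 this median was 6.37 kb (quartiles 3.59 and 14.4 kb). Within 1 kb of a MEF peak there were 2 of 44 ES-only peaks in the first window (4.55%, 1.26 to 15.1) and 7 of 57 in the second (12.3%, 6.08 to 23.3), against 7.23% on the autosomes. No MEF peak was found within 20 kb of 13 of 44 and of 14 of 57 ES-only peaks (29.5% and 24.6%), where the autosomal share was 32.0%. In the windows before and after the Hmga1-Grm4 window that number was 2 of 26 and 2 of 37. Around the Prkca-Cacng window it was 7 of 28 before and 2 of 10 after (25% and 20%). Of the 14 in the Hmga1-Grm4 window, 10 belonged to the run of 11 peaks.

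MEF-only peaks were seldom remote from ES peaks. The most remote lay 22.7 kb from an ES peak in the Prkca-Cacng window and 28.8 kb in the Hmga1-Grm4 window. No ES peak was found within 20 kb of 3 of 19 and 2 of 32 MEF-only peaks (15.8% and 6.25%), against 42.5% on the autosomes. Distances shorten where the other list is dense, and these windows were chosen for their ES peaks, so nothing is read from this difference. The median distance was 11.4 kb in the first window and 4.20 kb in the second, against 15.1 kb on the autosomes.

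**Figure D5:**
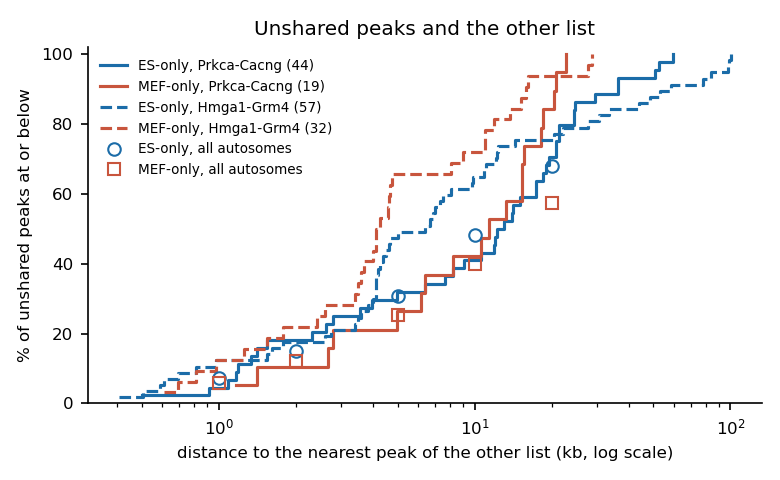
Cumulative percentage of unshared peaks by the distance to the nearest peak of the other list, in kb on a log scale, for both windows (lines, with peak numbers in brackets) and for all autosomes at 5 distances (open symbols). The line of ES-only peaks of the Hmga1-Grm4 window reaches 101 kb at its right end, and the lines of MEF-only peaks end at 22.7 and 28.8 kb.

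The spacing of ES peaks follows from their number, on which the windows were chosen. Midpoints of neighbouring ES peaks lay a median of 11.9 kb apart in the Prkca-Cacng window (quartiles 5.08 and 20.75 kb) and 9.24 kb in the Hmga1-Grm4 window (4.19 and 18.5 kb), against 22.0 kb on the autosomes. The window after the Hmga1-Grm4 window had nearly the same median, 9.26 kb, and the window before it 13.9 kb. For MEF peaks the medians were 20.4 and 13.6 kb, against 22.0 kb. Within 1 kb of each other lay 7 pairs of neighbouring ES peaks and no MEF pair on chromosome 17, and 3 ES pairs and 1 MEF pair on chromosome 11. The ES pairs were 9.72% of 72 and 5.45% of 55 neighbouring pairs, against 6.65% on the autosomes, and the window after the Hmga1-Grm4 window also had 7. The MEF pairs were 0% of 45 and 3.33% of 30 neighbouring pairs, against 6.32% on the autosomes. The longest stretch without an ES peak, 98.8 kb in the Prkca-Cacng window and 85.2 kb in the Hmga1-Grm4 window, held 3 MEF-only peaks in the first and 2 in the second.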

How the data were processed

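The authors deposited 1 list of CTCF peaks per library, and per the submitters' processing notes the positions are in the build mm9. Each peak has a whole-number score that the authors deposited without a definition, so scores served only for ranks within a list (percentiles with tied scores averaged). All peaks span 399 bp. Not given in the sources used here are the aligner, peak caller, threshold, control and read depth. Positions are printed counting from 1. The members and lists were chosen with earlier results of these data known. Peaks named are the 3 highest-scoring of each class per window, with the bins of largest difference and the longest runs. Overlaps were checked with bedtools 2.31.1, and the counting was tested on simulated lists. Shares carry 95% Wilson and ratios 95% exact binomial intervals, and medians of percentiles carry intervals from ordered values. They treat peaks as independent. No p-value was computed, because there is 1 library per cell type. No genome of the mm9 build was used here, so no sequence is shown. Counting used Python 3.11.15 with pandas 2.3.3 and numpy 2.4.6, intervals scipy 1.17.1, and plots matplotlib 3.10.9.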

Additional observations from a re-analysis of the deposited data

How the results depend on the processing

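Among 72 values under other settings, 66 lay inside the counting interval of the value given above (peak numbers: within 1.5 times), and 6 did not. 5 of these came from counting only the higher-scoring 50% of a list, with tied scores divided by position, against the whole other list. It left 27 ES-only and 7 MEF-only peaks in the Prkca-Cacng window, and 19 ES-only and 14 MEF-only peaks in the Hmga1-Grm4 window, where 36.7% of ES peaks were then shared. A lower number follows from counting fewer peaks. In bins of 100 kb, 90% of the bins of the Hmga1-Grm4 window had more ES-only than MEF-only peaks. With the window moved by 250 kb, the MEF share of peaks was 41.2% (left) and 43.5% (right) on chromosome 11 and 45.6% and 39.3% on chromosome 17. A moved window kept most of the chosen stretch, and the other settings reused its peaks. That a value lay inside the interval was thus partly fixed by the choice and is no independent support. Other alternatives were an overlap of 50% of both peaks, midpoints within 500 or 1000 bp, a MEF list shortened by score to as many peaks as the ES list, merged peaks, bins of 25 kb and percentiles within a class. No paired analysis was possible because the design has 1 ES and 1 MEF library. The effect of read depth, which is unknown, was not tested.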
